A study of Mus musculus with 8 samples.

Results

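The comparison described here set abdominal white fat of rsl male mice against that of wild type male mice, using the 4 male pools among the 8 pools of the series. The pools were taken by their labels: rsl male pools A and B (genotype B10.D2.PL, rsl/rsl) and wild type male pools A and B (genotype B10.D2, Rsl/Rsl). The design text calls the rsl mice Rsl-null. Each pool joined RNA of 5 adult mice kept on standard chow and filled 1 position of an Affymetrix mouse genome PM array strip, and the 4 female pools were made the same way. The labels give neither the age beyond adult nor the hour of harvest, and do not say whether pools A and B of a group share mice, so each p-value covers no more than the spread between pools. An effect of other PL-derived segments in the rsl strain and an effect of the Rsl alleles cannot be told apart.

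Rsl genes encode Krüppel-associated box (KRAB) zinc finger proteins, repressors that bind DNA and recruit a corepressor, and are known for keeping sex-limited liver genes low in female mice. Abdominal white fat stores triglyceride in adipocytes and also holds macrophages, mast cells, vessels and mesothelium. In male mice one abdominal fat depot lies along the epididymis, the duct in which sperm mature. The first segments of that duct secrete lipocalins, cystatins and a glutathione peroxidase around the sperm.

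Values are log2 robust multi-array average (RMA) intensities, and differences are given as rsl minus wild type with a standard error. High Ddx3y, a Y-linked RNA helicase, was part of the choice of pools, and Ddx3y read 9.05 and 9.36 in rsl males and 9.26 and 9.43 in wild type males, against group means of 2.95 and 2.84 in rsl and wild type females. Eif2s3y, a Y-linked translation factor gene that the choice did not use, read 9.23 and 8.96 in rsl males and 9.07 and 8.79 in wild type males, against means of 2.90 and 3.05 in rsl and wild type females. All 4 male pools were far above both female groups for both genes. The tissue label reads abdominal white adipose, whereas the source label says liver RNA. All 24 measured adipocyte genes were above the array background in every pool. Albumin (Alb), which hepatocytes secrete, read 4.31 and 5.13 in rsl males and 6.82 and 8.14 in wild type males. It averaged 6.28 in rsl and 6.74 in wild type females, where the background bound of the 8 arrays was 3.73 to 4.01.

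The 4 male pools did not separate cleanly by genotype. Wild type pool A correlated at 0.9907 with rsl pool B, higher than with wild type pool B (0.9884), and rsl pools A and B correlated at 0.9892. Rsl pool A and wild type pool B were the farthest apart, with 2528 probe sets differing by at least 1 log2 unit. With limma on all 8 arrays, with sex-specific weights, 277 of 45037 probe sets passed an adjusted p of 0.05 between rsl and wild type males, 133 higher (0.295%) and 144 lower (0.32%), and 7302 had an unadjusted p under 0.05. Of these 277 (0.615% of those tested), 211 were among probe sets above background in all 4 female pools (0.767%) and 38 among those below it in all 4 (0.297%). The first class is not limited to genes of fat. It includes the epididymal genes Lcn8, Rnase10, Lcn9, Cst8 and Gpx5, and Lcn8 averaged only 4.04 in rsl and 3.93 in wild type females. By the brightest probe set of each gene, 96 genes were higher and 95 lower of 20743 (0.921% in all, 0.463% higher and 0.458% lower). On the 4 male arrays alone limma called no probe set at that threshold and 5523 at an unadjusted p under 0.05, so each call below leans on the spread between the female pools as well. An exact two-sided permutation test of 2 pools against 2 cannot go below 0.333. On simulated data the limma procedure made more false calls than its nominal threshold allows, so an adjusted p near 0.05 is a weak call. Of the 67 called genes named by rule, 18 were called in all 8 fits that left out 1 array. Leaving out rsl male pool B lost none of the 67 calls, rsl male pool A 21, wild type male pool A 8 and wild type male pool B 33, while either wild type female pool lost 40 and either rsl female pool 48. All 277 differences kept their sign in the 8 fits. Leaving out a female pool cannot change a male difference, and either pool of a female group gave the same male test. The fits without either pool of a female group are therefore not separate checks.

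**Figure D1:**
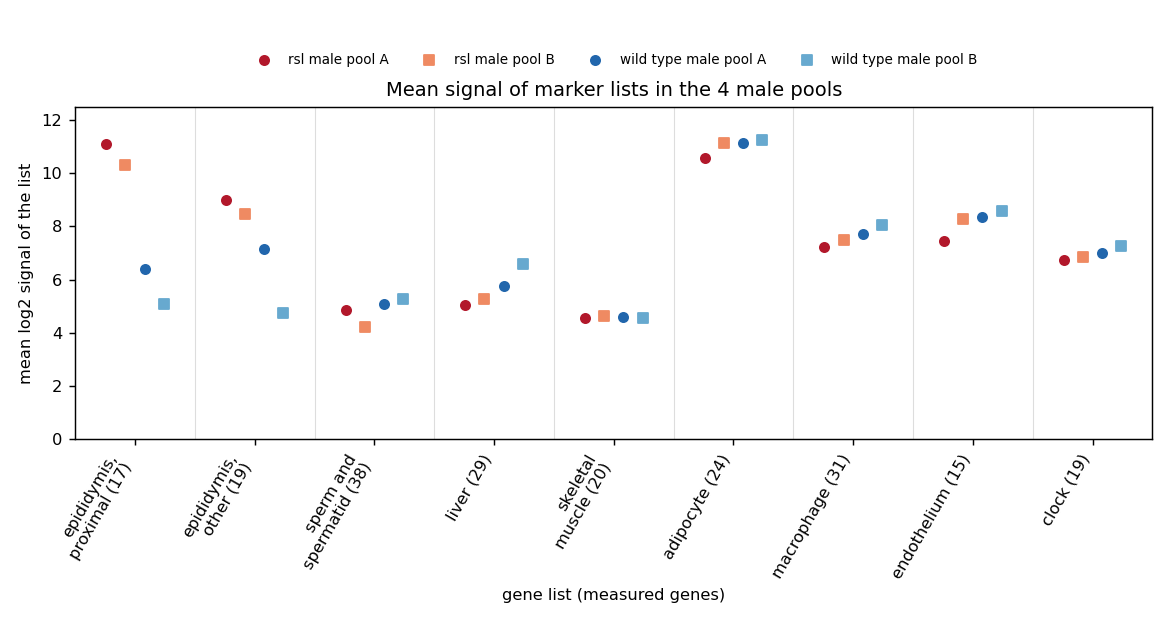
Mean log2 intensity of 9 gene lists (y axis, log2 RMA units) in each of the 4 male pools, rsl pools A and B left of wild type pools A and B. The proximal epididymis list averaged 11.11 and 10.33 in the rsl pools and 6.41 and 5.10 in the wild type pools, while liver transcripts were highest in wild type pool B at 6.57.

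RNA of the reproductive tract is treated first and apart from fat genes. All 4 male pools held some of it, since Prm2, a sperm protamine, read 6.61 to 8.96 in them against means of 4.13 and 4.42 in rsl and wild type females. The pools differed in which epididymal genes they held. Lcn8 and Lcn5, neighbouring lipocalin genes on mouse chromosome 2, show the difference between the pools. Their starts lie 4834 bases apart, and their 250 bases upstream of the start, from RefSeq on build GRCm38.p6, are shown because the pair shares a place in the genome and a promoter feature but not a pattern across the pools. Capitals mark the TATA-like letters ATATAA, searched on both strands.
Lcn8, chr2:25652868-25653117, plus strand: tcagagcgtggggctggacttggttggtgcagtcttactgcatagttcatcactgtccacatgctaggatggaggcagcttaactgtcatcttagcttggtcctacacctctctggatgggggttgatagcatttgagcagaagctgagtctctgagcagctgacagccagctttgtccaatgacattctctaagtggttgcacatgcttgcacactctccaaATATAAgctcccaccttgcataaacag
Lcn5, chr2:25657702-25657951, plus strand: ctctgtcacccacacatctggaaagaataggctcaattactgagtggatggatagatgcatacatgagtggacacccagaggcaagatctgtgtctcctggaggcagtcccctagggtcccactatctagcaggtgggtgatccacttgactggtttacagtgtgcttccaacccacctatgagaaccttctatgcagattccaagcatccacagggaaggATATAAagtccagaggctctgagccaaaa
Each window holds 1 ATATAA, and 9.1% of 32851 mouse promoter windows of the same length hold at least 1. The letters AGAACA, part of an androgen receptor site, were searched too. They had 0 matches in each window, where 16.1% of all windows hold at least 1. The ATATAA search was chosen after these sequences were read. Lcn8 read 12.84 and 12.19 in rsl pools A and B and 3.84 and 5.45 in wild type pools A and B, a difference of 7.87 ± 0.46 (234-fold, limma adjusted p = 0.000843). The Lcn8 value of wild type pool A lay just above that array's background bound of 3.81, so the size of the fold is uncertain. Lcn5, which binds retinoids, read 13.02 and 12.71 in the rsl pools but 12.59 and 6.04 in the wild type pools, a difference of 3.55 ± 1.72 that did not pass (limma adjusted p = 0.367). Both rsl pools were high for both genes, wild type pool B was low for both, and wild type pool A was low for Lcn8 but only 0.121 log2 units below the lower rsl pool for Lcn5.

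Among the 34 gene lists examined, the proximal epididymis list had the highest share of calls. The lists were chosen with earlier results of these data known. Their shares, here and below, describe these pools and are not a test. Of 17 measured, 9 rose in rsl males and none fell, against 0.463% of all genes called higher, and 16 had groups that did not overlap, where 24.2% of all genes had both rsl pools above both wild type pools. The list's median difference was 4.54, against -0.0014 over all genes. Without wild type pool A the called count was 14, and in the other 7 fits without 1 array it was 7 to 13. All 17 were higher in rsl pool A than in rsl pool B, where 53% of all genes were.

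The secreted proteins led this group. Cst11, a cystatin-family protease inhibitor, read 11.81 and 11.02 in rsl males against 3.43 and 3.71 in wild type males, where it was not above the array background. Set against the background bound of the wild type arrays, it was at least 200.7-fold higher in rsl males (difference 7.84 ± 0.24, limma adjusted p = 4.21e-05). Cst12, of the same family, read 11.31 and 10.47 in rsl males and 3.25 and 3.80 in wild type males (7.36 ± 0.28, limma adjusted p = 0.000105). Cst8, which is secreted onto sperm, read 12.31 and 11.74 in rsl males and 4.32 and 5.47 in wild type males (7.13 ± 0.34, adjusted p = 0.000272). The 3 cystatin genes were high in both rsl pools and low in both wild type pools, and each was called in all 8 fits without 1 array. Rnase10, a ribonuclease-family protein needed for sperm transit in mice, read 12.43 and 11.86 in rsl males and 3.99 and 5.02 in wild type males (7.64 ± 0.32, adjusted p = 0.000114). Gpx5, the secreted glutathione peroxidase of the duct, read 13.09 and 12.94 in rsl males against 5.93 and 7.87 in wild type males (6.12 ± 0.51, adjusted p = 0.00598). Wild type pool B was above wild type pool A for Gpx5, and the call was lost without either rsl female pool (adjusted p up to 0.0521). Adam28, a membrane metalloprotease, was at least 75.05-fold higher, at 10.64 and 9.36 in rsl males and 3.54 and 3.65, below the background bound, in wild type males. Etv5, an ETS transcription factor of the first segment, read 9.68 and 8.59 in rsl males against 5.85 and 6.03 in wild type males (3.20 ± 0.32, adjusted p = 0.0115), and was called in 3 of the 8 fits without 1 array (adjusted p up to 0.0722).

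Of 19 measured genes of other epididymal regions or of no known region, 4 rose in rsl males and none fell, against 0.463% of all genes called higher. Lypd8, a Ly6/uPAR-family membrane protein, read 12.51 and 11.83 in rsl males and 3.60 and 4.13 in wild type males (8.30 ± 0.25, limma adjusted p = 4.21e-05). Slc38a5, a neutral amino acid transporter, read 12.07 and 11.54 in rsl males and 4.89 and 5.10 in wild type males (6.81 ± 0.17, adjusted p = 3.26e-05). Pate5, another Ly6/uPAR-family gene, read 11.18 and 10.67 in rsl males and 3.10 and 3.98 in wild type males. Its relative Pate6 read 11.36 and 10.50 in rsl males against 5.42 and 3.91 in wild type males. All 4 were called in each of the 8 fits without 1 array. The list's median difference was 2.46, and it was 0.03 without wild type pool B and 5.19 without wild type pool A, so which wild type pool is kept decides it.

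Over both lists, the 36 measured epididymal genes fell into 3 sets of 12 by a gap of 3 log2 units below the lower rsl pool, a division chosen after the values were seen. In the first 12 both wild type pools lay 5.07 or more below the lower rsl pool, and all 12 were called. They are Adam28, Cst8, Cst11, Cst12, Gpx5, Lcn8, Lcn9, Lypd8, Pate5, Pate6, Rnase10 and Slc38a5. In the next 12 only wild type pool B was that low, and none was called. These are the protease inhibitors Eppin, Spink8, Spink10, Spint4 and Wfdc15b, the sperm-coating proteins Crisp1 and Crisp4, the lipocalins Lcn5 and Lcn12, the defensin Defb42, the membrane protein Adam7 and the carboxylesterase Ces5a. They read 10.24 to 13.02 in rsl pool A and 9.48 to 12.71 in rsl pool B, against 7.41 to 12.60 in wild type pool A and 3.65 to 7.32 in wild type pool B. The last 12 met neither condition, and of these only Etv5 was called.

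Crisp1 stands for the set that wild type pool A shared. Crisp1 read 12.40 and 12.25 in rsl males and 12.60 and 7.14 in wild type males, so wild type pool A was the highest of the 4 and the groups overlapped (2.46 ± 1.43, limma adjusted p = 0.46). Without wild type pool A its difference was 5.19 and called (adjusted p = 0.00025). Spink8, a Kazal-type serine protease inhibitor, read 12.36 and 12.02 in rsl males against 12.35 and 5.58 in wild type males. Spint4, a Kunitz-type inhibitor, read 11.12 and 10.78 in rsl males against 11.68 and 4.16 in wild type males. Lcn12 was intermediate in wild type pool A, at 10.76 and 9.53 in rsl males against 7.41 and 3.79 in wild type males. Adam7 read 12.34 and 12.04 in rsl males and 11.04 and 5.26 in wild type males. Wild type pool A lay above the lower rsl pool for 6 of these 12 genes and less than 1 log2 unit below it for 5 more.

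**Figure D2:**
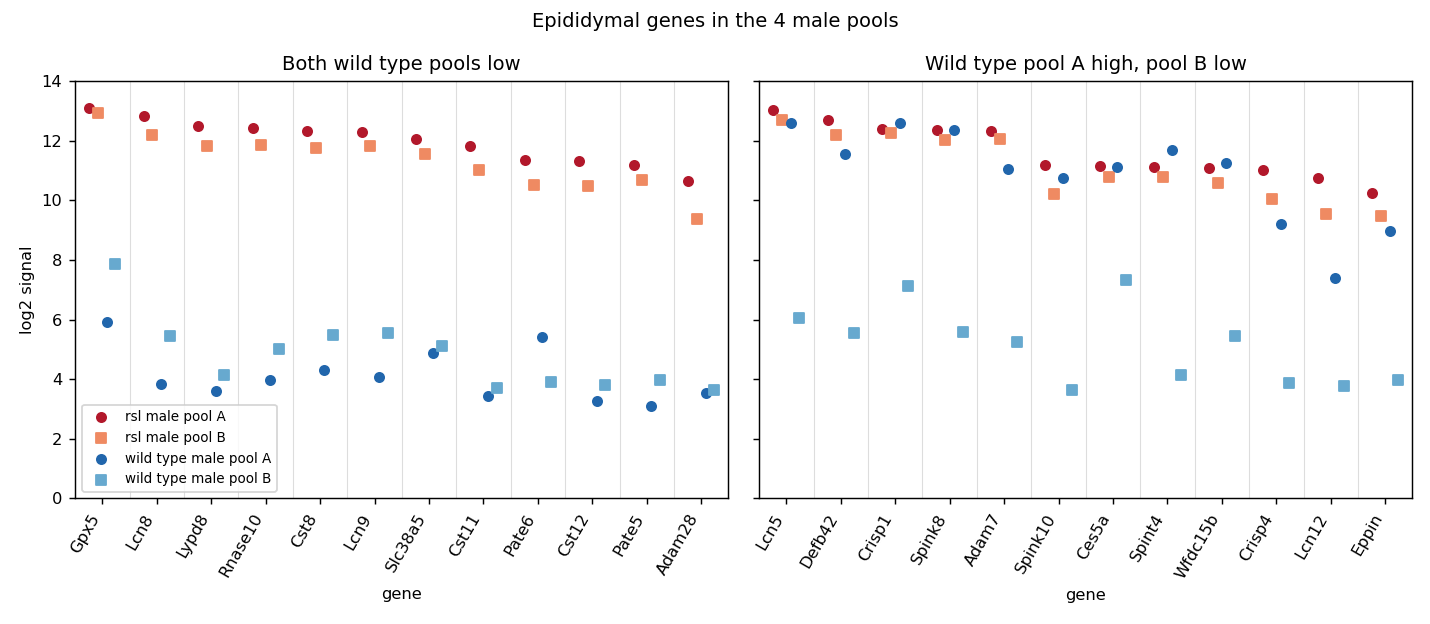
Log2 RMA intensity (y axis) of 24 epididymal genes in rsl male pools A and B and wild type male pools A and B, split into the 12 genes low in both wild type pools and the 12 low only in wild type pool B. In the first set wild type pool A sits at 3.10 to 5.93, and in the second at 7.41 to 12.60, beside the rsl pools.

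Further genes named by the rule, outside the reproductive tract lists, had the same form: high in both rsl pools, low in both wild type pools and low in females. Cstdc2, a cystatin-domain gene, read 12.38 and 11.33 in rsl males against 4.45 and 5.16 in wild type males (7.05 ± 0.35, limma adjusted p = 0.000291). Defb41, a beta-defensin, read 11.15 and 9.85 in rsl males against 5.07 and 3.53 in wild type males. Spink5, a multidomain serine protease inhibitor, read 10.36 and 9.38 in rsl males against 5.01 and 3.31 in wild type males. The natural killer cell lectin gene Klrb1a was at least 17.55-fold higher, at 8.64 and 7.16 in rsl males and 3.34 and 3.49, below background, in wild type males. Its neighbour Klrb1c read 7.78 and 6.81 in rsl males and 4.23 and 4.21 in wild type males (3.08 ± 0.27, adjusted p = 0.00743). It was the 1 called gene among 17 lymphocyte genes, where 0.463% of all genes were called higher, and the list's median difference was 0.02. Slc7a5, the large neutral amino acid transporter, read 11.24 and 10.21 in rsl males and 7.15 and 7.08 in wild type males (3.61 ± 0.29, adjusted p = 0.00482). Krt23, an epithelial keratin, read 7.36 and 6.55 in rsl males and 3.88 and 3.92 in wild type males. Rsl pool A was above rsl pool B for all 7 of these genes. Cstdc2, Slc7a5 and Krt23 were called in all 8 fits without 1 array, while Spink5 and Klrb1a were called in 4, and Defb41 and Klrb1c in 6. Other genes of this form were chosen after their values were seen. Runx2, a bone transcription factor, read 8.0 and 6.76 in rsl males and 3.83 and 3.91 in wild type males, and was called in 3 of the 8 fits. Teddm2 read 10.55 and 9.76 in rsl males and 4.33 and 4.46 in wild type males, and was called in all 8.

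Genes known in other cells of fat also rose in rsl males, where 0.463% of all genes were called higher. Actg2, the smooth muscle actin, read 10.92 and 9.96 in rsl males and 6.07 and 6.56 in wild type males (4.12 ± 0.37, limma adjusted p = 0.00756), and averaged 9.26 in rsl females and 9.07 in wild type females. The Actg2 call was lost without either rsl female pool (adjusted p up to 0.0533). Egr2, an immediate early transcription factor, read 10.12 and 8.93 in rsl males and 6.52 and 4.8 in wild type males (3.86 ± 0.56, adjusted p = 0.0392). Egr2 was the 1 called gene of 25 immediate early genes, whose median difference was -0.03, and was called in 2 of the 8 fits without 1 array (adjusted p up to 0.135). Lcn2, an iron-siderophore binding lipocalin made by fat and by epithelia, read 12.28 and 11.94 in rsl males against 9.82 and 10.37 in wild type males (2.02 ± 0.28, adjusted p = 0.0333). In females Lcn2 averaged 7.30 in rsl and 3.52 in wild type mice, and that difference passed too (3.78, adjusted p = 0.000399). In males the Lcn2 call held in 1 of the 8 fits without 1 array (adjusted p up to 0.105).

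Of 38 sperm and spermatid transcripts, 2 fell in rsl males, none rose and 36 were not called, against 0.458% of all genes called lower. Both rsl pools were below both wild type pools for 21 of them, where 26.5% of all genes were, and the median difference was -0.41. Akap3, an anchoring protein of the sperm tail, fell to 4.68 and 3.71 in rsl males, against 6.28 and 7.22 in wild type males (-2.56 ± 0.36, limma adjusted p = 0.0364). Spata4, a spermatogenesis gene, read 5.09 and 4.16 in rsl males and 6.35 and 7.05 in wild type males (-2.08 ± 0.32, adjusted p = 0.0463). Each was called in 3 of 8 fits without 1 array, and no sperm gene was called without wild type pool B or without any 1 female pool. The protamine Prm2, which packs sperm DNA, read 8.96 and 6.61 in rsl males and 8.55 and 8.51 in wild type males (-0.75 ± 0.62, adjusted p = 0.632). Prm1, its partner, read 7.75 and 6.17 in rsl males and 7.39 and 7.23 in wild type males. Prm2 and Prm1 were high in rsl pool A and in both wild type pools and lower in rsl pool B, with groups that overlapped. Sperm RNA and epididymal duct RNA did not order the pools alike. The mean over the proximal epididymis list was highest in rsl pool A (11.11) and lowest in wild type pool B (5.10), although wild type pool B was above wild type pool A for 9 of its 17 genes. Over the sperm list the mean was lowest in rsl pool B (4.22) and highest in wild type pool B (5.26). None of 11 Leydig and Sertoli cell genes and none of 14 accessory gland genes was called.

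Of 29 measured liver transcripts, 3 fell in rsl males and none rose, against 0.458% of all genes called lower, and the median difference was -0.58. Serpina1c, an alpha-1-antitrypsin, read 4.13 and 4.30 in rsl males and 6.83 and 8.66 in wild type males (-3.53 ± 0.49, limma adjusted p = 0.0359). Ttr, the carrier of thyroxine and retinol-binding protein, read 4.42 and 4.74 in rsl males and 6.98 and 8.60 in wild type males (-3.21 ± 0.45, adjusted p = 0.0364). Alb, whose pools are given above, differed by -2.76 ± 0.43 (adjusted p = 0.0471). In rsl and wild type females Serpina1c averaged 4.20 and 4.03, Ttr 4.96 and 4.21, and Alb 6.28 and 6.74. For Alb both rsl male pools thus lay below both female means as well. For all 3 genes wild type pool B was the highest and the groups did not overlap. Mean levels over the list were 5.04 and 5.25 in rsl males and 5.76 and 6.57 in wild type males, and 25 of the 29 genes were higher in wild type pool B than in pool A. Without rsl pool A, or without any 1 female pool, no liver gene was called. No gene of the 9 measured liver targets of Rsl was called.

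The fat cell genes come next. Beside every difference in them stand the epididymal, sperm and liver values above, the adipocyte list mean (10.59 and 11.15 in rsl males, 11.13 and 11.24 in wild type males) and the 3-prime minus 5-prime Gapdh signal, an RNA integrity measure (0.793 and 1.03 in rsl males, 0.678 and 0.708 in wild type males); their part in the results was not tested. In RNA of whole tissue, fewer cells of a type and less RNA per cell cannot be told apart.

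None of 24 adipocyte genes was called. The adipocyte median difference was -0.31, with 22 of 24 lower on average in rsl males, and without rsl pool A it was -0.01. Without rsl pool B the adipocyte median difference was -0.61, so the list's low side rests on rsl pool A. Adipoq, the hormone adiponectin, read 12.83 and 13.12 in rsl males and 13.04 and 13.13 in wild type males. Fabp4, the fatty acid carrier, read 13.17 and 13.26 in rsl males against 13.26 and 13.28 in wild type males. Lep, leptin, read 9.56 and 10.48 in rsl males against 11.02 and 11.17 in wild type males, without overlap but not passing (-1.07 ± 0.27, limma adjusted p = 0.129). Pparg, the adipocyte master regulator, read 9.20 and 9.97 in rsl males against 10.33 and 10.68 in wild type males (adjusted p = 0.131).

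Of 20 genes known to mark fat expansion, 2 fell in rsl males and none rose, against 0.458% of all genes called lower, with a median difference of -0.43. Mest, an imprinted gene that tracks fat gain, read 7.28 and 6.82 in rsl males and 8.57 and 8.90 in wild type males (-1.69 ± 0.19, limma adjusted p = 0.0198). Mest was also lower in rsl females, at means of 5.80 in rsl and 7.86 in wild type mice (-2.06, adjusted p = 0.00125). Sfrp5, a secreted Wnt inhibitor, read 4.64 and 4.72 in rsl males and 6.11 and 6.62 in wild type males (-1.69 ± 0.17, adjusted p = 0.0131), with female means of 4.64 in rsl and 5.11 in wild type mice that did not pass. The groups of males did not overlap for either gene. Mest was called in 3 and Sfrp5 in 4 of the 8 fits without 1 array, and neither without any 1 female pool (adjusted p up to 0.112 and 0.0765). Trp53inp2, an autophagy regulator on the same list, read 9.27 and 9.88 in rsl males and 10.54 and 10.66 in wild type males and did not pass (adjusted p = 0.0709).

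Genes outside the lists gave more of the male difference among genes made in fat. Mtarc1, a mitochondrial amidoxime-reducing enzyme, read 5.59 and 5.75 in rsl males and 8.22 and 7.66 in wild type males (-2.27 ± 0.21, limma adjusted p = 0.00778). Adcyap1r1, the PACAP receptor, read 5.68 and 5.81 in rsl males and 7.19 and 7.65 in wild type males (-1.67 ± 0.16, adjusted p = 0.00894), with female means of 6.39 in both genotypes. Both rsl pools lay close together and below both wild type pools for these genes, and each was called in 6 of 8 fits without 1 array. Sox7, a transcription factor of endothelium, read 6.46 and 6.85 in rsl males and 8.22 and 8.57 in wild type males (-1.73 ± 0.17, adjusted p = 0.0111). S100a8, a calprotectin subunit of neutrophils, read 4.01 and 3.96 in rsl males and 5.93 and 5.51 in wild type males (-1.73 ± 0.19, adjusted p = 0.0171). Its rsl male values lay near the background bound of 3.86. In females S100a8 was also low, at means of 4.37 in rsl and 4.16 in wild type mice. Hspb7, a small heat shock protein, read 4.56 and 5.23 in rsl males against 6.45 and 6.83 in wild type males. Prcp, prolylcarboxypeptidase, read 5.15 and 5.63 in rsl males against 6.90 and 7.43 in wild type males and was also called lower in rsl females (adjusted p = 0.0241). Sox7 was called in 3, S100a8 in 4, and Hspb7 and Prcp each in 2 of the 8 fits without 1 array. Ptger3, the prostaglandin receptor that restrains lipolysis, was chosen after its values were seen. It read 6.86 and 7.29 in rsl males and 8.90 and 8.49 in wild type males (-1.62 ± 0.18, adjusted p = 0.0171). Cnr1, the CB1 cannabinoid receptor, chosen in the same way, read 4.36 and 5.0 in rsl males and 6.07 and 6.43 in wild type males (-1.57 ± 0.23, adjusted p = 0.0423). Ptger3 was called in 4 and Cnr1 in 2 of the 8 fits without 1 array (adjusted p up to 0.0855 and 0.274).

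**Figure D3:**
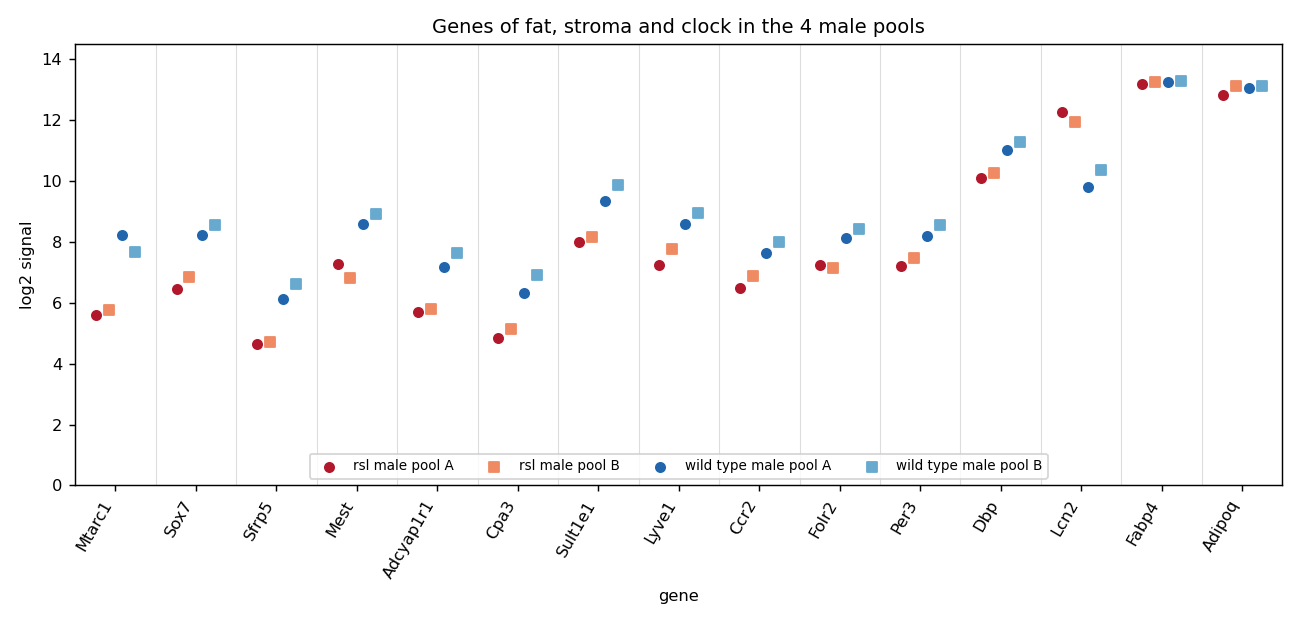
Log2 RMA intensity (y axis) of 15 genes made in fat, its immune cells or its vessels, in rsl male pools A and B and wild type male pools A and B. Mtarc1, Sox7 and Sfrp5 have both rsl pools more than 1 log2 unit below both wild type pools, whereas Fabp4 spans only 13.17 to 13.28.

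Lipid enzymes were examined by pathway. No gene passed among 20 of fatty acid synthesis, 17 of triglyceride assembly, 24 of lipolysis and the lipid droplet, 26 of fatty acid oxidation, 34 of oxidative phosphorylation or 16 of heat production. Elovl6, a fatty acid elongase, read 9.93 and 8.98 in rsl males and 8.29 and 7.21 in wild type males (1.70 ± 0.40, limma adjusted p = 0.112). Fads2, a desaturase, read 8.90 and 8.05 in rsl males and 7.62 and 6.62 in wild type males (1.35 ± 0.36, adjusted p = 0.144). Pools A of both genotypes exceeded pools B for these 2 genes, and the groups did not overlap.

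Sult1e1, estrogen sulfotransferase, which inactivates estrogens, fell in rsl males. It read 7.98 and 8.14 in rsl males and 9.34 and 9.87 in wild type males, without overlap (-1.54 ± 0.19, limma adjusted p = 0.0238). Its female means were 3.79 in rsl and 4.08 in wild type mice, so the rsl males remained far above both female groups. The male call held in 2 of 8 fits without 1 array (adjusted p up to 0.1).

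Immune cell genes of fat gave few calls. Of 31 macrophage genes 3 fell and none rose, against 0.458% of all genes called lower, and the median difference was -0.50. Both rsl pools were below both wild type pools for 24, as for 26.5% of all genes and 32% of those above background in all female pools. All 31 were higher in wild type pool B than in wild type pool A, so the wild type pools were themselves apart. Lyve1, a hyaluronan receptor of resident macrophages, read 7.24 and 7.78 in rsl males and 8.59 and 8.95 in wild type males (-1.26 ± 0.19, limma adjusted p = 0.043). Ccr2, the chemokine receptor of recruited monocytes, read 6.48 and 6.89 in rsl males and 7.64 and 7.98 in wild type males (-1.13 ± 0.17, adjusted p = 0.0436), with 1 of its 4 probe sets of the other sign. Folr2, the folate receptor of resident macrophages, read 7.23 and 7.14 in rsl males and 8.14 and 8.43 in wild type males (-1.10 ± 0.17, adjusted p = 0.0468), and was also called lower in rsl females (adjusted p = 0.0413). No macrophage call held without rsl pool A, without wild type pool B, without any 1 female pool, or when a gene's probe sets were averaged. The list's median difference was -0.66 without rsl pool B and -0.33 without rsl pool A. F13a1, a coagulation factor subunit that resident macrophages express, was chosen after its values were seen. F13a1 read 9.10 and 9.34 in rsl males and 10.30 and 10.52 in wild type males (-1.19 ± 0.12, adjusted p = 0.0131), and was called in 3 of the 8 fits. Mrc1, the mannose receptor, read 8.40 and 8.96 in rsl males and 9.37 and 9.66 in wild type males and did not pass (adjusted p = 0.11).

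Mast cells, vessels and matrix gave single calls or none, where 0.458% of all genes were called lower and 0.463% higher. Cpa3, the mast cell carboxypeptidase, was the 1 called gene of 10 mast cell genes, at 4.83 and 5.12 in rsl males and 6.31 and 6.91 in wild type males (-1.63 ± 0.22, limma adjusted p = 0.0334). It was also called lower in rsl females, at means of 5.99 in rsl and 7.30 in wild type mice (adjusted p = 0.0154). In males the Cpa3 call held in 2 of 8 fits without 1 array (adjusted p up to 0.164). None of 15 endothelial genes was called, although all 15 were lower on average in rsl males and 14 of them in rsl females. Rsl pool A was below rsl pool B, and wild type pool A below wild type pool B, for all 15. The endothelial median difference was -0.56, and it was -0.90 without rsl pool B and -0.21 without rsl pool A. Tek, the angiopoietin receptor, read 6.53 and 7.91 in rsl males and 8.15 and 8.49 in wild type males. Of 28 matrix genes Col6a4, a collagen VI chain, rose, at 5.43 and 4.95 in rsl males and 3.75 in each wild type male pool (1.44 ± 0.15, adjusted p = 0.0159). Col6a4 was also higher in rsl females (adjusted p = 0.0135), and its male call held in 3 of 8 fits without 1 array.

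Of 19 measured circadian genes, 2 fell in rsl males and none rose, against 0.458% of all genes called lower. The median difference was -0.36 in males and 0.40 in females, and 15 were lower in rsl males against 5 in rsl females. Dbp, a transcription factor that the clock drives, read 10.11 and 10.25 in rsl males and 11.01 and 11.29 in wild type males (-0.97 ± 0.12, limma adjusted p = 0.0238). In females it averaged 11.66 in rsl and 10.83 in wild type mice (0.84 ± 0.08, adjusted p = 0.00802), and the difference between the sexes passed as an interaction (-1.81, adjusted p = 0.00823), as it did for 0.246% of all genes. Per3, a period gene of the clock, read 7.22 and 7.46 in rsl males and 8.19 and 8.54 in wild type males (-1.03 ± 0.16, adjusted p = 0.0466). Per3 averaged 8.03 in rsl and 7.40 in wild type females (0.62 ± 0.11, adjusted p = 0.0524), with an interaction of -1.65 (adjusted p = 0.0385). Both rsl male pools were below both wild type male pools for both genes. The male calls of Dbp and Per3 each held in 2 of 8 fits without 1 array (adjusted p up to 0.17 and 0.323). Of the 6 Per3 probe sets, 1 had the other sign in males.

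DBP protein binds D-box sequences, and Per3 and Dbp moved together, so their 250 bases upstream of the start (RefSeq, GRCm38.p6) are shown. Capitals mark the D-box letters TTATGTAA, searched on both strands, a motif chosen after the sequences were read.
Per3, chr4:151044666-151044915, minus strand: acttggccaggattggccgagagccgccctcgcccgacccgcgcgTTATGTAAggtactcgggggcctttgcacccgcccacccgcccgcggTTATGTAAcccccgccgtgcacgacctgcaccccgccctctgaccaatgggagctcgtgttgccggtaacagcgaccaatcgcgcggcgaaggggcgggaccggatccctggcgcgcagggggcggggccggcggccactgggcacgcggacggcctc
Dbp, chr7:45704997-45705246, plus strand: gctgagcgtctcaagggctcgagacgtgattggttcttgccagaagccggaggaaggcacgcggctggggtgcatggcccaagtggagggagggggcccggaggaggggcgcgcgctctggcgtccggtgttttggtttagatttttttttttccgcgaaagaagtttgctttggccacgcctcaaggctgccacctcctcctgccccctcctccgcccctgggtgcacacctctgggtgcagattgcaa
The Per3 window holds 2 matches and the Dbp window 0, where 0.819% of the 32851 windows of that length hold at least 1. A match describes the letters and does not show binding.

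The other clock genes did not pass in males. Nr1d2, the repressor REV-ERB beta, read 9.44 and 9.54 in rsl males and 10.05 and 10.15 in wild type males (-0.61 ± 0.11, limma adjusted p = 0.0621). Per2 read 5.57 and 6.08 in rsl males and 6.65 and 7.38 in wild type males (adjusted p = 0.095). Arntl, the positive arm of the clock, known also as Bmal1, read 5.90 and 5.50 in rsl males and 5.16 and 5.15 in wild type males (adjusted p = 0.279). Nr1d2 and Per2 were thus lower, and Arntl higher, in both rsl pools than in both wild type pools. In females Arntl averaged 4.85 in rsl and 5.79 in wild type mice, the opposite order (-0.94, adjusted p = 0.0413). Ciart, a clock repressor, read 5.02 and 5.16 in rsl males and 5.26 and 5.71 in wild type males without passing (adjusted p = 0.307). In females it averaged 6.94 in rsl and 5.10 in wild type mice, a called rise (1.84 ± 0.12, adjusted p = 0.00119), and its interaction passed (-2.23, adjusted p = 0.0155). The hour at which each pool's mice were killed is not given in the sources used here, and an effect of that hour and of genotype cannot be told apart.

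**Figure D4:**
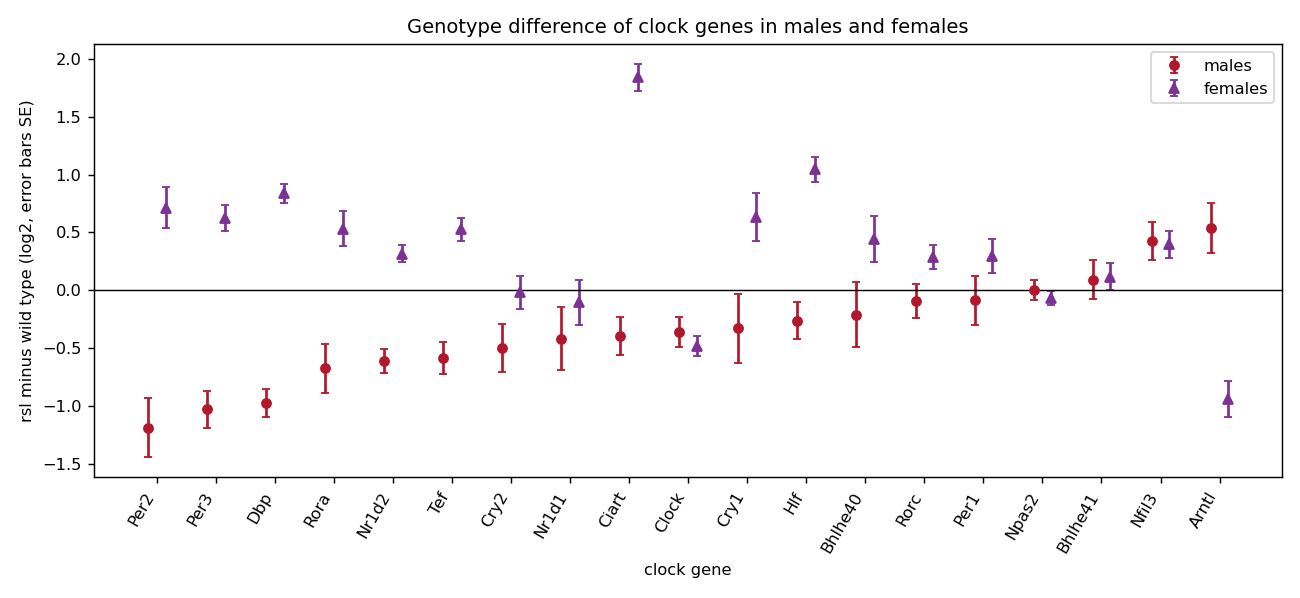
Rsl minus wild type difference in log2 RMA intensity (y axis) of 19 circadian genes, with bars of 1 SE from limma, in males and in females. Dbp sits at -0.97 in males and 0.84 in females, and Per3 at -1.03 and 0.62.

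Genes that mark the rsl strain were chosen with earlier results of both sexes of these pools known. Their male counts and the female values beside them are therefore a description only. Of 10 measured Trim genes of chromosome 7, 4 fell in rsl males, against 0.458% of all genes called lower. Trim12a, an interferon-inducible ubiquitin ligase family gene, read 2.95 and 2.81, below background, in rsl males and 6.06 and 6.12 in wild type males. It was at least 4.694-fold lower in rsl males (-3.21 ± 0.12, limma adjusted p = 0.000105), and the female difference was -3.15. Trim30d was at least 5.548-fold lower, at 3.71 and 3.77 in rsl males and 6.25 and 6.42 in wild type males. Trim34a read 4.71 and 5.34 in rsl males and 7.35 and 7.66 in wild type males, and 1 of its 2 probe sets had the other sign. Trim30a read 6.29 and 6.60 in rsl males against 7.46 and 7.84 in wild type males. The first 2 were called in all 8 fits without 1 array, Trim34a in 5 and Trim30a in 2.

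The list of KRAB family genes for the Rsl cluster, chosen with the same results known, had 15 measured members. Of these, 2 fell and 1 rose in rsl males, again a description only. Over all genes 0.458% were called lower and 0.463% higher. Zfp874a was at least 3.657-fold lower, at 3.42 and 3.40 in rsl males and 5.60 and 5.86 in wild type males (-2.32 ± 0.11, limma adjusted p = 0.000291). Zfp429 read 3.95 and 3.93 in rsl males and 5.20 and 5.01 in wild type males (-1.17 ± 0.14, adjusted p = 0.0239). Zfp729a ran the other way, at 5.89 and 6.11 in rsl males and 4.95 and 5.21 in wild type males (0.92 ± 0.12, adjusted p = 0.0303). Rsl1, known for restraining sex-limited liver genes, read 3.98 and 3.83 in rsl males, near the background bound, and 4.62 and 5.02 in wild type males. Its male difference did not pass (-0.91 ± 0.16, adjusted p = 0.0601), while its female difference did (-1.54, adjusted p = 0.00217). Zfp429, Zfp729a and Rsl1 were each called in 2 of the 8 fits without 1 array, and Zfp874a in all 8. Probes of such similar zinc finger genes may read more than one of them, so these values are uncertain by gene.

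Outside these lists Erdr1, an erythroid differentiation regulator, read 9.39 and 9.63 in rsl males and 6.13 and 5.84 in wild type males (3.53 ± 0.14, limma adjusted p = 0.000108). Hddc3, a phosphohydrolase, and Prxl2c, a peroxiredoxin-like gene, were chosen after their values were seen. Hddc3 read 7.46 and 7.72 in rsl males and 4.96 and 4.82 in wild type males (2.70 ± 0.11, adjusted p = 0.000116). Prxl2c read 6.67 and 6.66 in rsl males and 8.05 and 8.39 in wild type males (-1.55 ± 0.12, adjusted p = 0.00482). The 3 genes were called in all 8 fits without 1 array, and the females had differences of 3.59, 3.02 and -1.52 for Erdr1, Hddc3 and Prxl2c. Of the 96 genes that rose in rsl males 8 also rose in rsl females, and of the 95 that fell 31 also fell, where 1.35% of all genes were called in females. Male and female calls come from the same fit and share each probe set's variance, so they are not independent.

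**Figure D5:**
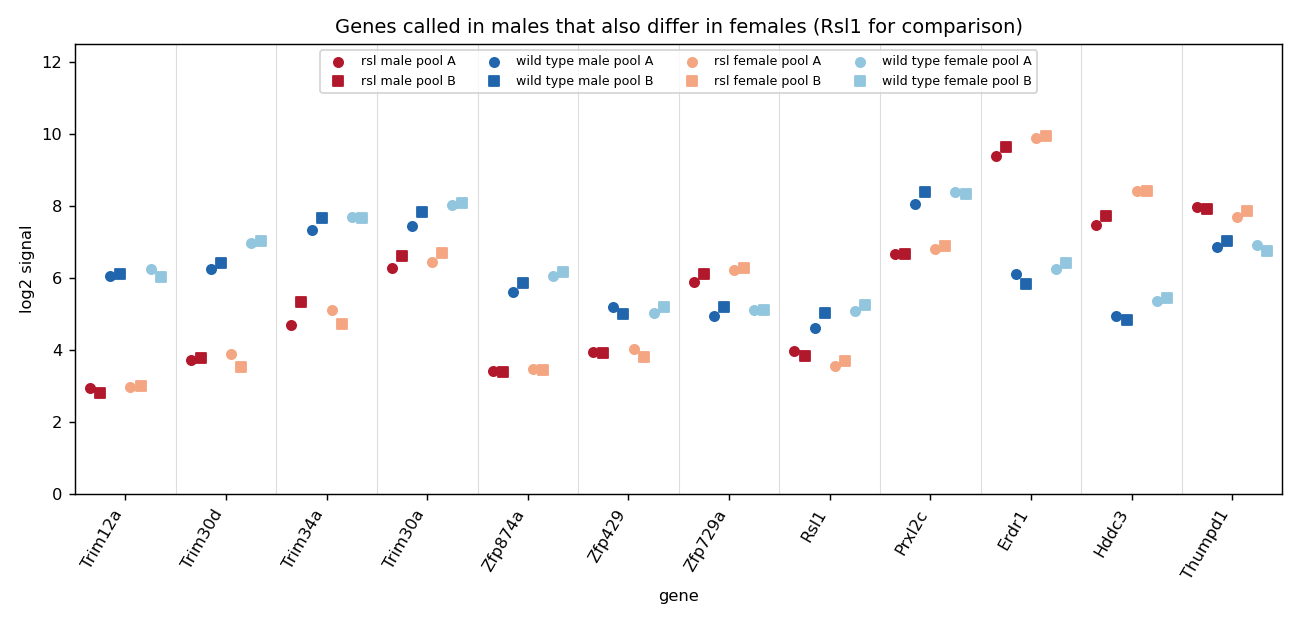
Log2 RMA intensity (y axis) of 12 strain-marking genes in all 8 pools, rsl pools left of wild type pools in each sex. Trim12a sits at 2.95 and 2.81 in rsl males and 6.06 and 6.12 in wild type males, and the female pools repeat that order.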

How the data were processed

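RNA of 5 mice per pool was labelled from 400 ng with a 3-prime in vitro transcription kit and hybridised to 1 array per pool, per the labels. The deposited values are log2 RMA intensities per probe set, per the submitters' processing notes, which give no version. RMA gives probe-set summaries after background correction and quantile normalization, so levels are relative between arrays. The number of arrays limits the precision. Of 45141 probe sets, 104 controls were left out. The deposited annotation table gave 2743 names, RefSeq accessions 34527, RefSeq symbols 1097, and 6670 probe sets stayed unnamed. A gene was read by its brightest probe set. Another 8 columns that match no sample here were not used.

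A probe set counted as above background where it exceeded the highest of 22 antigenomic control sets of 3 to 24 G or C bases on that array. The control set with the most G or C was dropped once its values had been seen. Where both pools of a group lay below that bound, the fold is the minimum that the bound allows.

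Group means were fitted to all 8 arrays with limma 3.58.1 in R 4.3.3, with 1 weight per sex (0.7025 for males, 1.423 for females), and p-values were Benjamini-Hochberg adjusted over all 45037 probe sets. Called means an adjusted p under 0.05. The difference between the sexes was the interaction term. On simulated data the procedure recovered large changes but made more false calls than the nominal threshold.

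The text names, by gene, the largest called changes, every called list member, the members of each list with the smallest p, the Rsl and Trim clusters, and Lcn8, Crisp1, Prm2 and Ddx3y. Ptger3, Cnr1, F13a1, Hddc3, Prxl2c, Runx2 and Teddm2 were added after their values were seen. The male comparison and the 34 gene lists were chosen with earlier results of these data known. Shared replicate letters were not used as pairs, since no label states a pairing. Deviations of same-lettered pools correlated at 0.346 between the male groups and -0.0481 to 0.115 between the others. A fit with the letters as a block is given below. A few genes are not reported here, and counts over lists and over all genes include them.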

Additional observations from a re-analysis of the deposited data

Results flagged for a closer look

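For 29 named genes the rsl minus wild type difference in males departed from that in females by the interaction term of the limma fit (adjusted p under 0.05), and the values below are male minus female differences on the log2 scale. Such a departure was called for 51 of 20743 genes (0.246%). Among the epididymal genes the values were Lypd8 8.12, Lcn8 7.76, Cst11 7.74, Rnase10 7.39, Lcn9 7.35, Cst12 7.35, Pate5 7.19, Cst8 6.94, Slc38a5 6.79, Adam28 6.49, Pate6 6.23, Gpx5 6.06 and Etv5 3.33. Genes of the same form outside the epididymal lists were Cstdc2 6.94, Defb41 6.25, Spink5 5.65, Cryba4 5.29, Klrb1a 4.59, Spin2c 3.41, Klrb1c 3.06, Krt23 3.03 and Slc7a5 2.79. Actg2, which female fat also expresses, had 3.93.

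Negative departures were fewer. S100a8 had -1.94, Adcyap1r1 -1.67 and D430019H16Rik -1.67, all lower in rsl males and not called in females. The clock genes Dbp (-1.81) and Per3 (-1.65) were lower in rsl males and higher on average in rsl females. Gpat3, an acyltransferase of triglyceride assembly, had -1.09: it read 9.09 and 9.32 in rsl males and 9.59 and 9.70 in wild type males, without passing (adjusted p = 0.112), and was called higher in rsl females (0.65, adjusted p = 0.013). The same epididymal, sperm and liver values stand beside all of these, and their part was not tested.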

How the results depend on the processing

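The calls between rsl and wild type males numbered 277 in all, 211 among probe sets above background in every female pool and 38 among those below it in every female pool, and 67 for the interaction. They moved to 594, 494 and 26 (all, female-detected, interaction) with equal weights. On the male arrays alone they were 0, 0 and 0 (all, female-detected, female-undetected), where the unadjusted p was under 0.05 for 5523, 4622 and 544. On gene means, where fewer values are tested, they were 129, 92 and 16. By the brightest probe set of each gene the main fit called more, 191, 144 and 26 genes. Gene means lost 21 of the 67 named calls, among them Mtarc1, Hspb7, Akap3, Spata4, Trim34a, Trim30a, Col6a4 and Alb. Leaving out 1 array gave 34 to 4878, 23 to 4417, 4 to 284, and 9 to 2475. The lowest came without a female pool and the highest without rsl male pool B, where the lone rsl male pool is assumed to vary like the other groups. Leaving out pool A of both male groups, chosen after seeing the data, gave 3843, 3045, 505 and 2117. With the replicate number as a block, 250 probe sets were called in males, 195 of them among the 277, and the interaction count was 22. No label says that the letters pair the samples, and that fit lost 11 of the 67 named calls, among them Akap3, Spata4, Prcp, Per3 and Folr2. The Per3 call was also lost under 5 other settings that kept all arrays and the female pools. Every other setting gave between 239 and 343 calls in males, and no called result changed sign under any setting tried. Other causes of these shifts were not tested. Probe sets near the background bound allow only minimum folds.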
